A study of Mus musculus with 8 samples.

Results

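*Spp1* encodes osteopontin, a secreted phosphoglycoprotein of the extracellular matrix, and is a gene that both activated fibroblasts and macrophages are known to express. The 10 genes described here are *Spp1* and 9 genes that mark lipid-associated macrophages: *Trem2*, *Gpnmb*, *Cd9*, *Fabp5*, *Fabp4*, *Apoe*, *Lpl*, *Lgals3* and *Ctsd*. They were taken by gene symbol from the 54532 genes of the expression table. The set was chosen with measured values of these libraries known, so the values of the 10 genes are given as a description, with no p-value. They were fitted with all other genes, and how many passed the thresholds is given beside the share of all genes that did, as a description too. All 10 were among the 15708 genes fitted, which had at least 0.5 FPKM in at least 2 of the 8 libraries. FPKM is the number of sequenced fragments on a gene scaled for its length and for the size of the library. The question followed through the data is whether *Spp1*, which the study's text counts among fibroblast-related genes, moved with the fibroblast genes or with the macrophage genes.

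Lipid-associated macrophages are tissue macrophages that take up dying cells and lipoproteins and digest them in lysosomes. The receptor TREM2 senses lipids and signals through the adaptor TYROBP. These macrophages store and export lipid with the help of fatty acid binding proteins, apolipoprotein E and lysosomal proteases. Macrophages of this kind collect in the infarcted heart, in atherosclerotic plaques and in obese fat, and *Spp1* is often named among their marker genes. Osteopontin binds αv integrins and CD44 and is made in large amounts after cardiac injury, where it acts on fibroblasts and inflammatory cells alike.

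The cells, called MICFs, were cardiac fibroblasts from mice with myocardial infarction, and they overexpressed MGTMyoS, which stands for *Mef2c*, *Gata4* and *Tbx5* in 1 polycistronic construct plus *Myocd* and *Sall4* from separate viruses. All constructs, with that for eGFP, were lentiviral and induced by doxycycline (Dox), and all 4 groups carried them. The *in vivo* groups are eGFP+ cells sorted 1 week (Day 7) or 2 weeks (Day 14) after transplantation into infarcted hearts of mice given Dox, and the *in vitro* groups are eGFP+ cells of the same infected MICFs sorted after the same time in culture with Dox. Each group had 2 libraries. The methods describe C57BL/6 mice, an immunosuppressant cocktail (tacrolimus, mycophenolate mofetil and methylprednisolone) for transplanted hosts, and an induction medium with a TGF-β receptor inhibitor and a JAK inhibitor for cultured cells. MICFs are a primary isolate and not a clone, and the study's own text describes macrophages in it beside fibroblasts. A bead step against the leukocyte antigen CD45 is described for purifying MICFs, but it is not stated whether the sequenced cells went through it. The sources used here do not say which animals or wells the 2 libraries of a group came from, so the p-values below measure only the spread between these samples, which may be technical.

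The libraries held 12304242 to 14546904 fragments on genes. Fibroblast and macrophage markers were both present in all 8 libraries. *Col1a1*, the main fibrillar collagen gene, ran from 363 to 4709 FPKM, *Pdgfra*, the platelet-derived growth factor receptor alpha gene of fibroblasts, from 19.8 to 27.8 FPKM, *Cd68*, a macrophage lysosomal glycoprotein gene, from 51.6 to 208 FPKM, and *Adgre1*, which encodes the F4/80 antigen, from 43.2 to 134 FPKM. The label of a fibroblast isolate therefore covers libraries that also held macrophage transcripts. The granulocyte gene *Ly6g* and the adipocyte genes *Adipoq* and *Lep* were at 0 in every library, and *Cd3e* of T cells reached at most 0.0837 FPKM. In such bulk samples, fewer cells of a type and less RNA per cell cannot be told apart.

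Promoter sequence is shown for *Spp1*, for the 2 members whose profile lay nearest to it (*Lgals3* and *Trem2*) and for *Ctsd*. The profile of *Ctsd* was less close to that of *Spp1* than theirs, but it was not among the farthest. Each line gives the 120 bases before an annotated RefSeq start site of GRCm38.p6, 5′ to 3′ on the gene's strand, at chr5:104434991-104435110 (+), chr14:47373740-47373859 (+), chr17:48346281-48346400 (+) and chr7:142387828-142387947 (-). The RefSeq start of *Lgals3* lies inside the gene as the expression table places it. Capitals mark the letters of a searched motif.
Spp1: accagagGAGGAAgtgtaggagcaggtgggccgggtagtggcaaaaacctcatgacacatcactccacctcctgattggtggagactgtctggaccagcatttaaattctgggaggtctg
Lgals3: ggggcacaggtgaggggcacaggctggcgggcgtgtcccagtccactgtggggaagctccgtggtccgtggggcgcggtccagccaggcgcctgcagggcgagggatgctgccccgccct
Trem2: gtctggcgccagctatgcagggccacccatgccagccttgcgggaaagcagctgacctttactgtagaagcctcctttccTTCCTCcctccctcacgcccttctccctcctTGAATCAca
Ctsd: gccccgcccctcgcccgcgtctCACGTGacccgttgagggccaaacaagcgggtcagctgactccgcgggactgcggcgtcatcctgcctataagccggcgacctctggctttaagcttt

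The 4 motifs were searched on both strands of the 300-base windows (250 bases before to 50 after a start), of which 10 belonged to 7 of the members. *Fabp4*, *Fabp5* and *Lpl* had no window in the table used. GAGGAA, the core of sites for the macrophage factor PU.1 and other ETS proteins, was in 4 of the 10 windows and in 28.28% of all 32851. Those 4 windows belonged to 3 of the 7 members (*Spp1*, *Trem2* and *Apoe*). TGANTCA, the AP-1 site, was in 2 of the 10 windows (*Trem2* and *Gpnmb*) and in 7.81% of all windows. CACGTG, the E-box read by TFEB and MITF at lysosomal genes, was in 1 of the 10 windows, that of *Ctsd*, at 2 places, and in 7.15% of all windows. TATAAA was in 2 of the 10 windows (*Spp1* and *Apoe*) and in 13.62% of all windows. In *Spp1* the GAGGAA match spans positions -113 to -108 from the start site, and in *Trem2* it reads TTCCTC at -40 to -35, on the other strand. The window of *Lgals3* held none of the 4 motifs, so the 3 genes with the closest profiles shared no motif of those searched. A match is a description of letters, and binding was not measured.

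*Spp1* (ENSMUSG00000029304, chr5:104435118-104441050, plus strand) was the third most abundant of the 10 genes, at a mean of 187.5 FPKM over the 8 libraries. At 1 week it stood at 204 and 181 FPKM in the *in vivo* libraries and at 231 and 252.5 FPKM in the *in vitro* libraries. At 2 weeks it stood at 61.3 and 46.6 FPKM *in vivo* and at 221 and 302 FPKM *in vitro*. The *in vivo* libraries of 2 weeks were therefore the low ones, the other 6 lay between 181 and 302 FPKM, and the *in vivo* and *in vitro* groups did not overlap at either week. Fitted on log2(FPKM + 0.1), the *in vivo* minus *in vitro* log2 fold change came to -0.33 ± 0.18 (standard error, SE) in the first week and to -2.27 ± 0.18 in the second, when the mean was 4.85-fold higher *in vitro*. Within the *in vivo* groups the mean was 3.565-fold lower at 2 weeks than at 1 week (log2 difference -1.84 ± 0.18), whereas *in vitro* it differed by 0.10 ± 0.18. A gene model of unknown type, *Gm42793*, lies inside *Spp1* on the same strand with 0.217 to 5.91 FPKM, and the assignment of shared fragments to it is not known.

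*Lgals3* encodes galectin-3, a carbohydrate-binding lectin of macrophages that is secreted and also gathers on damaged lysosomes (ENSMUSG00000050335, chr14:47367751-47386160, plus strand). Its levels were 137 and 108 FPKM *in vivo* and 192 and 198 FPKM *in vitro* at 1 week. At 2 weeks they were 53.0 and 42.3 FPKM *in vivo* and 168 and 209 FPKM *in vitro*. The order of the libraries resembled that of *Spp1*, with the *in vivo* libraries of 2 weeks lowest and those of 1 week next. Its log2 fold changes were -0.68 ± 0.16 (1 week) and -1.98 ± 0.16 (2 weeks).

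*Trem2*, the lipid-sensing receptor itself (ENSMUSG00000023992, chr17:48346401-48354147, plus strand), was at 23.1 and 17.3 FPKM *in vivo* and 29.5 and 32.5 FPKM *in vitro* at 1 week. At 2 weeks it was at 10.4 and 7.45 FPKM *in vivo* and 34.4 and 41.9 FPKM *in vitro*. The groups did not overlap at either week, and the gap was wider at 2 weeks. Its log2 fold changes were -0.63 ± 0.20 (1 week) and -2.09 ± 0.20 (2 weeks), the latter within 1 SE of the *Spp1* value at 2 weeks.

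*Gpnmb* encodes a transmembrane glycoprotein of lysosome-rich, lipid-loaded macrophages (ENSMUSG00000029816, chr6:49036546-49070929, plus strand). It stood at 26.2 and 24.2 FPKM *in vivo* against 132 and 152 FPKM *in vitro* at 1 week, and at 12.5 and 10.98 FPKM against 88.0 and 100.4 FPKM at 2 weeks. Unlike *Spp1*, it was already far lower *in vivo* at 1 week, with a log2 fold change of -2.49 ± 0.11 there and -2.996 ± 0.11 at 2 weeks. In culture it stood lower at 2 weeks than at 1 week, with a log2 difference of -0.59 ± 0.11.

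*Cd9* encodes a tetraspanin of the cell surface and of exosomes, found on many cell types including fibroblasts (ENSMUSG00000030342, chr6:125460266-125494791, minus strand). Its levels at 1 week were 74.4 and 74.2 FPKM *in vivo* and 71.0 and 69.8 FPKM *in vitro*. At 2 weeks they were 129 and 142 FPKM *in vivo* and 82.0 and 84.9 FPKM *in vitro*, so that the *in vivo* libraries of 2 weeks were its highest, where those of *Spp1* were its lowest. Its log2 fold changes were 0.08 ± 0.06 (1 week) and 0.69 ± 0.06 (2 weeks). The value at 1 week took the opposite sign, -0.26, when fragments were scaled only to the library total, and -0.10 under quantile normalization. Both antisense genes across *Cd9* stayed at or under 0.667 FPKM.

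*Apoe* encodes the lipoprotein that carries cholesterol out of macrophages (ENSMUSG00000002985, chr7:19696109-19699188, minus strand) and was the most abundant member. It stood at 2218 and 1833 FPKM *in vivo* and 1500 and 1675 FPKM *in vitro* at 1 week. At 2 weeks it stood at 2120 and 1978 FPKM *in vivo* and 3071 and 3385 FPKM *in vitro*. The order of the groups turned over between the weeks, with *in vivo* above *in vitro* in every library at 1 week and below at 2 weeks. Its log2 fold changes were 0.35 ± 0.13 (1 week) and -0.66 ± 0.13 (2 weeks). In culture *Apoe* was 2.033-fold higher at 2 weeks than at 1 week, while the *in vivo* groups differed by 0.02 ± 0.13 on the log2 scale. With fragments scaled to the library total alone, the value at 1 week was 0.005.

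*Lpl* encodes lipoprotein lipase, which frees fatty acids from circulating lipoproteins (ENSMUSG00000015568, chr8:68880491-68907448, plus strand). It was at 21.0 and 19.3 FPKM *in vivo* and 14.6 and 20.04 FPKM *in vitro* at 1 week. At 2 weeks it was at 13.2 and 10.2 FPKM *in vivo* and 15.7 and 17.1 FPKM *in vitro*. The groups overlapped at 1 week and did not at 2 weeks, with log2 fold changes of 0.24 ± 0.17 and -0.50 ± 0.17. The sign at 1 week was negative, -0.10, without scaling between libraries.

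The fatty acid binding proteins *Fabp5* and *Fabp4* carry lipids inside the cell and differed in opposite directions between the conditions. *Fabp5* (ENSMUSG00000027533, chr3:10012548-10016607, plus strand) was at 18.1 and 15.2 FPKM *in vivo* against 44.6 and 40.1 FPKM *in vitro* at 1 week, and at 7.23 and 6.02 FPKM against 43.2 and 48.1 FPKM at 2 weeks. Its log2 fold changes were -1.35 ± 0.13 (1 week) and -2.77 ± 0.13 (2 weeks). The processed pseudogene *Fabp5l2* was listed at 0 in every library, and reads shared with near-identical copies of *Fabp5* may have been counted or dropped, which is not stated.

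*Fabp4* (ENSMUSG00000062515, chr3:10204088-10208576, minus strand) is a gene of adipocytes, capillary endothelium and macrophages. It was at 18.9 and 16.2 FPKM *in vivo* against 3.02 and 2.77 FPKM *in vitro* at 1 week, and at 13.3 and 17.0 FPKM against 7.52 and 7.44 FPKM at 2 weeks. It was higher *in vivo* at both weeks, by 2.55 ± 0.13 and 1.00 ± 0.13 on the log2 scale. Endothelial markers were also higher *in vivo*: the summed level of all 19 ran from 245.6 to 255 FPKM *in vivo* and 77.0 to 79.2 FPKM *in vitro* at 1 week, and from 250.6 to 265 FPKM and 178 to 196 FPKM at 2 weeks. All 19 were tested, and *Pecam1*, which encodes the endothelial adhesion protein CD31, was at 16.0 and 14.3 FPKM *in vivo* and 1.63 and 2.13 FPKM *in vitro* at 1 week. The profile of *Fabp4* differed from those of the endothelial markers by a median of 0.452, less than from the core macrophage genes at 1.29, on the measure explained below. The part of endothelial cells in its level was not tested. Adipocyte markers summed to at most 4.20 FPKM in any library, with *Adipoq* at 0.

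*Ctsd* encodes cathepsin D, an aspartic protease of lysosomes (ENSMUSG00000007891, chr7:142375911-142388038, minus strand). It was at 561 and 525 FPKM *in vivo* and 655 and 665 FPKM *in vitro* at 1 week, and at 401.5 and 386.5 FPKM *in vivo* and 583 and 686.5 FPKM *in vitro* at 2 weeks. It was lower *in vivo* in every library of each week, by the small log2 changes of -0.28 ± 0.09 and -0.68 ± 0.09.

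**Figure D1:**
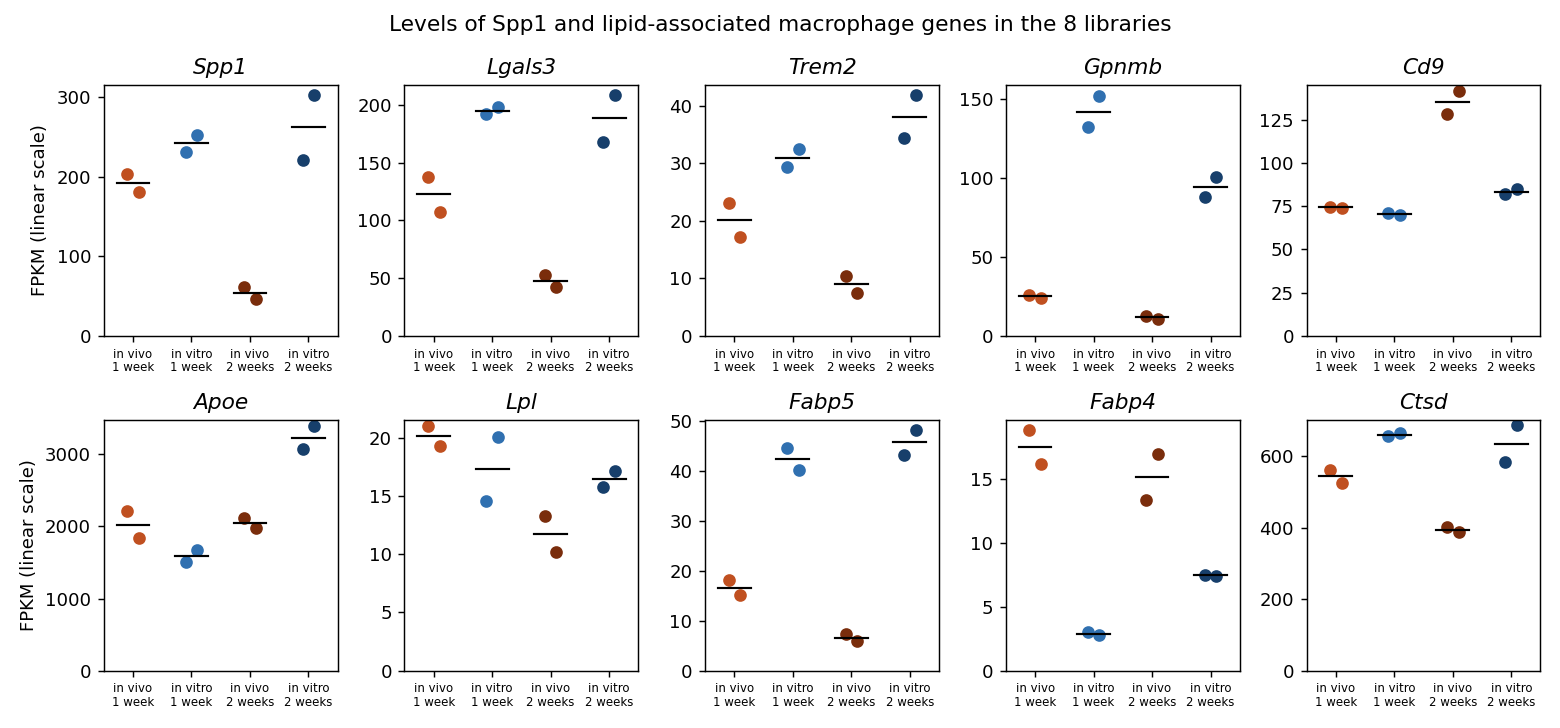
Level of each of the 10 genes in FPKM (linear axis from 0) in the 8 libraries, grouped by condition and week, with 1 point per library and a bar at the mean of the 2. *Spp1*, *Lgals3*, *Trem2*, *Fabp5*, *Gpnmb*, *Lpl* and *Ctsd* have their lowest points in the *in vivo* libraries of 2 weeks. *Cd9* has its highest there, and *Fabp4* is lowest in the *in vitro* libraries of 1 week.

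A gene was called where the adjusted p of limma's moderated test (Benjamini-Hochberg) was under 0.01 and the absolute log2 fold change over 1. At 1 week 1 member (*Fabp4*) was called higher *in vivo* and 2 (*Gpnmb* and *Fabp5*) lower, where 7.79% and 5.07% of all tested genes were called higher and lower. At 2 weeks 1 member (*Fabp4*, at the fold threshold) was called higher and 5 (*Spp1*, *Trem2*, *Gpnmb*, *Fabp5* and *Lgals3*) lower, beside 9.02% and 8.05% of all tested genes. For the difference between the weeks, 0 members were called higher and 3 (*Spp1*, *Fabp5* and *Fabp4*) lower, beside 0.573% and 1.15%. The members were selected on these same values, so nothing is read from the counts. The call of *Fabp4* at 2 weeks was lost without scaling between libraries, with a pseudocount of 1 and without the second library of either group. The 3 calls for the difference became 0 with no filter, with no variance trend, with the replicate number as a block and without any 1 library of *in vitro* or of *in vivo* at 1 week, and 1 without either *in vivo* library of 2 weeks. The median log2 fold change of the 10 was -0.31 at 1 week and -1.33 at 2 weeks, with medians over all tested genes of -0.006 and -0.003. Without scaling between libraries those medians over all tested genes became -0.34 and -0.33, and changes on that scale are to be read relative to them.

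**Figure D2:**
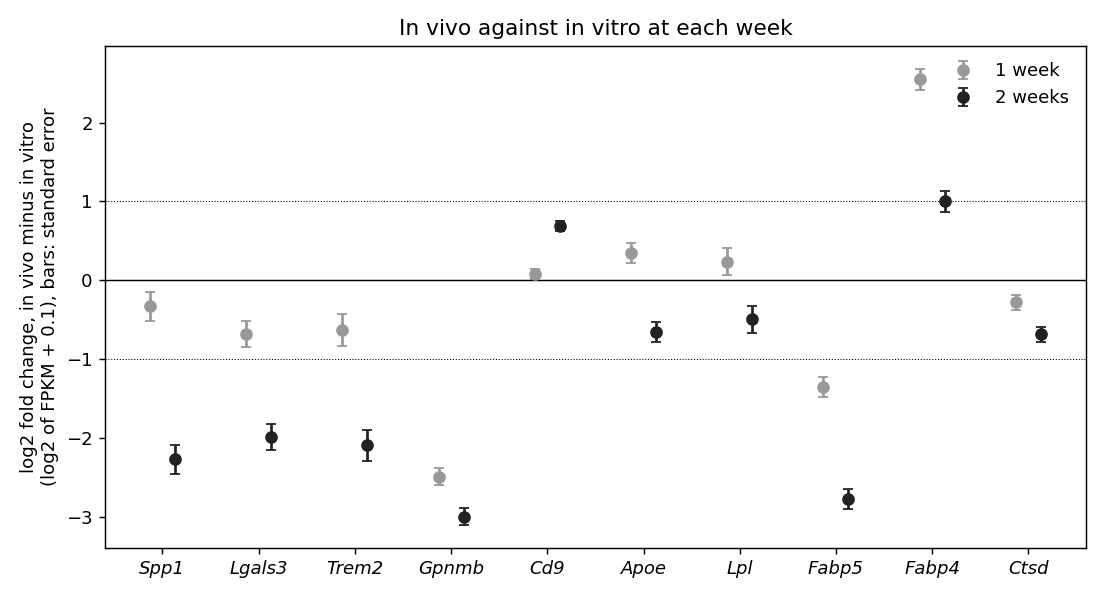
Fitted log2 fold change, *in vivo* minus *in vitro*, of each gene at 1 week (grey) and 2 weeks (black), with bars of 1 SE and dotted lines at a log2 fold change of 1 in either direction. *Spp1*, *Lgals3* and *Trem2* lie between -0.68 and -0.33 in grey and near or below -2 in black (highest -1.98). *Fabp4* lies above 0 at both weeks, as does *Cd9*, whose value at 1 week changes sign without scaling between libraries.

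Between the weeks, the same libraries were compared within each condition. *In vivo*, 0 members were called higher and 4 (*Spp1*, *Gpnmb*, *Fabp5* and *Lgals3*) lower at 2 weeks, beside 1.23% and 0.949% of all tested genes. *In vitro*, 2 (*Fabp4* and *Apoe*) were called higher and 0 lower, beside 2.76% and 1.05%. The log2 change *in vivo* was -1.84 for *Spp1*, -1.36 for *Lgals3*, -1.31 for *Fabp5*, -1.17 for *Trem2* and -1.10 for *Gpnmb*, each with an SE between 0.11 and 0.20, and 0.86 ± 0.06 for *Cd9*. *Fabp4* went from 2.899 to 7.479 FPKM on average *in vitro*, while its *in vivo* means were 17.5 and 15.2 FPKM. The 4 calls *in vivo* became 0 in a fit of its 4 libraries alone or without its first library of 1 week, and 1 without the second. The 2 calls *in vitro* became 0 without the second library of 1 week or either library of 2 weeks, and 1 without the first of 1 week.

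To ask which genes *Spp1* moved with, each gene's log2(FPKM + 0.1) was centred on its own mean over the 8 libraries, and the difference from the profile of *Spp1* was taken as a root mean square (RMS, in log2 units). A value of 0 is an identical profile, and the median over the other 15707 tested genes was 0.996. The 30 core macrophage genes had a median RMS of 0.704 (range 0.3 to 3.11), and the 30 fibroblast genes 1.67 (0.596 to 3.27). In percentile terms, where a low percent means a close profile, the median core macrophage gene ranked at 7.52% of all tested genes and the median fibroblast gene at 90.5%. The lists overlapped, and single genes lay far from their list's median. In the core macrophage list *Ccr2* ranked at 99.6% and *Fcgr1* at 87.3%. In the fibroblast list *Acta2* ranked at 2.89%, *Thy1* at 10.1%, *Ddr2* at 36.9%, *Pdgfrb* at 46.3% and *Pdgfra* at 63.3%. *Tagln* also lay nearer than the median of all tested genes, and the genes of the list not named here lay farther than it. The collagen genes of the list ranked at 86.3% (*Col6a1*) to 96.1% (*Col5a1*). The fibroblast median therefore does not stand for all fibroblast genes alike. The 40 further lipid-associated macrophage genes had a median of 0.786 (15.0%) and the 11 tested TREM2 signalling genes other than *Trem2* 0.754 (11.6%). The 9 other members had a median of 0.707 (7.73%), but they were chosen with these values known, so nothing is read from it. Lists not made of macrophage markers were close as well. The median was 0.802 (17.0%) for the 15 genes of lysosome membrane and biogenesis, 0.869 (27.1%) for the 12 tetraspanins and partners and 0.881 (28.8%) for the 11 cathepsins. The 19 endothelial markers had a median of 1.90 (94.0%). The measure also depends on how large a gene's changes are, so a moderate RMS alone does not show a shared pattern. These are descriptions over 8 libraries that fall into *in vivo* and *in vitro* sets, and the genes of a list share those libraries and are not independent. Without the second *in vivo* library of 2 weeks the core macrophage median ranked at 12.2% and that of the members at 17.0%. The fibroblast median stayed at 89.8% to 91.2% whichever library was left out.

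**Figure D3:**
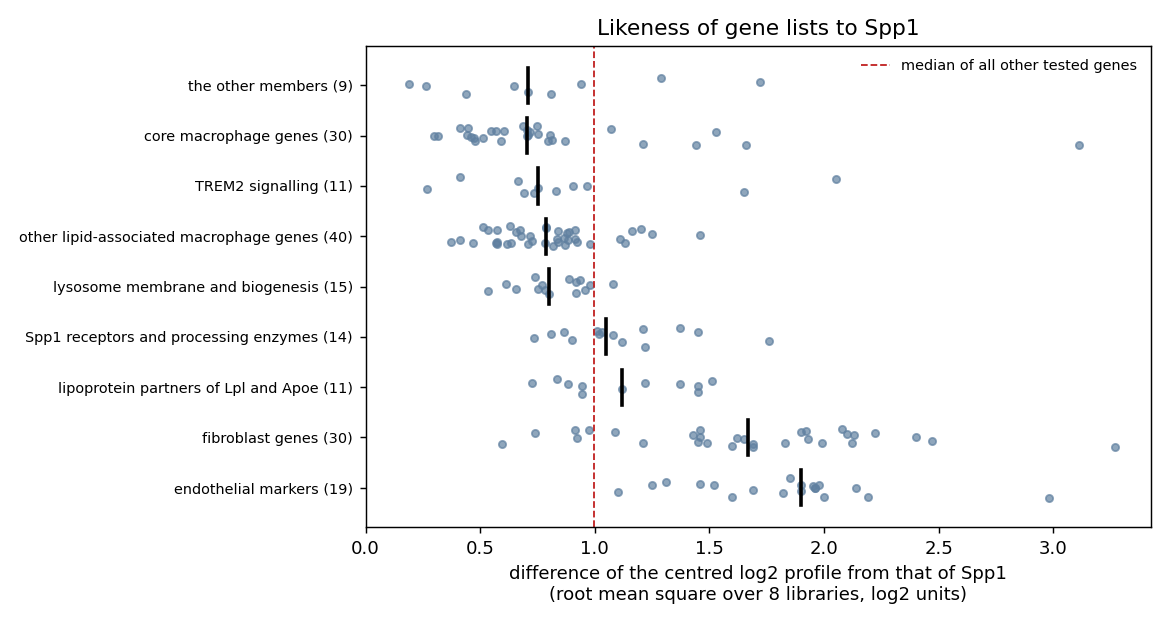
Difference of each gene's centred log2 profile from that of *Spp1* (x axis, RMS over 8 libraries in log2 units), with 1 point per tested gene of a list, gene lists on the y axis with their number of genes and a black bar at each list's median. The dashed line at 0.996 is the median of all other tested genes. Left of it lie the medians of the core macrophage (0.704), TREM2 signalling (0.754), further lipid-associated (0.786) and lysosome (0.802) lists. That of the other members (0.707) lies there too, but they were chosen with these values known. Right of the line lie those of the fibroblast and endothelial lists (1.67 and 1.90).

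Of the 10 protein-coding genes nearest to *Spp1* with a mean of at least 5 FPKM (7108 candidates), 2 were members and 2 were in the core macrophage list. The fibroblast list held 0 of them, and 6 were in no list. A list of 30 genes would seldom reach the nearest 10 of so many candidates, so nothing is read from the 0. The members were chosen with these values known, so nothing is read from their count either. The nearest was *Clec12a*, which encodes an inhibitory C-type lectin receptor of myeloid cells, at an RMS of 0.146. It was at 9.58 and 7.43 FPKM *in vivo* and 12.4 and 14.3 FPKM *in vitro* at 1 week, and at 3.16 and 2.18 FPKM *in vivo* and 12.5 and 14.5 FPKM *in vitro* at 2 weeks. Then came *Lgals3* (0.191) and *Trem2* (0.262), followed by *Cdk18* (0.283), a kinase gene. *Mpeg1*, the pore-forming perforin-2 of macrophages, had an RMS of 0.300 and *Cd68* one of 0.315. *Arl11* (0.316), *Sema4d* (0.319), *Stmn1* (0.341) and *Cdc20* (0.348) made up the rest, of which *Stmn1*, a microtubule regulator, and *Cdc20*, an activator of the anaphase-promoting complex, are known from dividing cells. The nearest of the fibroblast list was *Acta2*, smooth muscle actin, at 0.596, a rank of 2.89% among the tested genes. Of these 10 genes, 7 to 9 stayed among the nearest 10 when any 1 library was left out, 6 under quantile normalization and 3 when each profile was divided by its SD.

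Among themselves the members fell apart. *Spp1*, *Lgals3* and *Trem2* differed from each other by 0.150 to 0.262, *Fabp5* from *Spp1* by 0.437 and *Gpnmb* from *Spp1* by 0.809. *Cd9* and *Fabp4* were the farthest from *Spp1*, at 1.29 and 1.72. *Ctsd* and *Lpl* lay closest of all members to the core macrophage genes, with a median RMS of 0.306 and 0.389. *Cd9* was at nearly the same distance from the core macrophage genes (0.735) and the fibroblast genes (0.801). *Fabp4* was the 1 member closer to the fibroblast genes (0.886) than to the core macrophage genes (1.29).

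**Figure D4:**
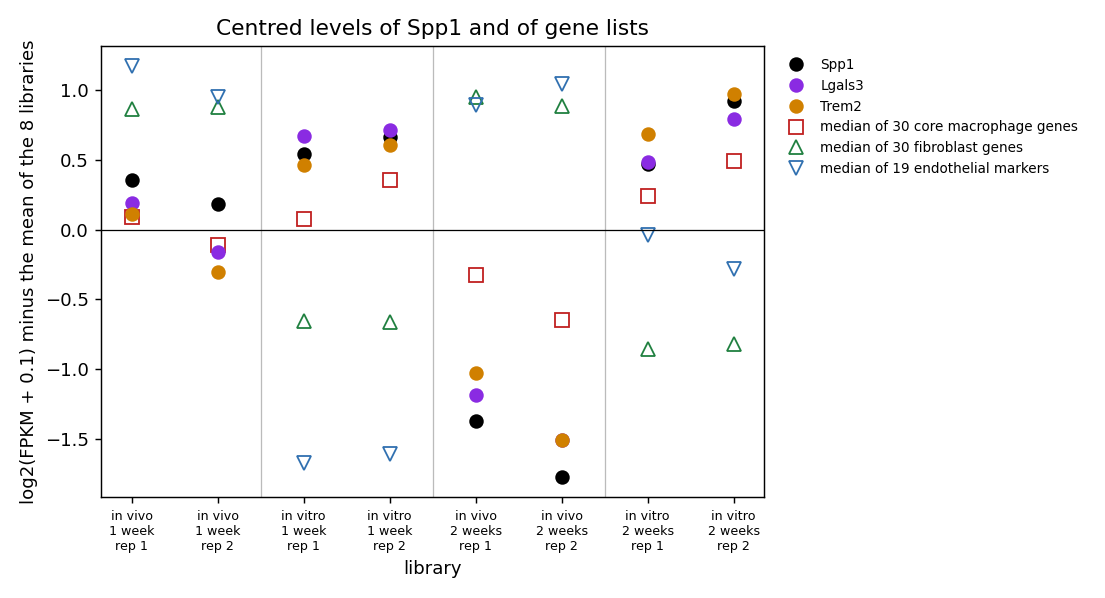
Centred log2(FPKM + 0.1) (y axis, 0 is the gene's mean over the 8 libraries) of *Spp1*, *Lgals3* and *Trem2* (filled circles) and of the medians of 3 gene lists (open symbols) in each library (x axis). In the *in vivo* libraries of 2 weeks *Spp1* is at -1.37 and -1.77 and the core macrophage median at -0.33 and -0.64, while the fibroblast median is at 0.95 and 0.89.

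The ratio of *Spp1* to single marker genes within a library gives the same comparison without any scaling between libraries. *Spp1* FPKM over *Cd68* FPKM was 1.62 and 1.66 *in vivo* and 1.40 and 1.22 *in vitro* at 1 week, and 0.926 and 0.902 *in vivo* and 1.2 and 1.45 *in vitro* at 2 weeks. The ratio thus spanned 1.84-fold over the 8 libraries, where *Spp1* itself spanned 6.49-fold. Over *Adgre1* the ratio spanned 2.72-fold, over *Csf1r*, the macrophage growth factor receptor gene, 4.12-fold, over *Ptprc*, the pan-leukocyte gene for CD45, 4.36-fold and over the integrin gene *Itgam* 5.61-fold. Over the fibroblast genes the span was wider, at 7.68-fold for *Pdgfra* and 49.4-fold for *Col1a1*. *Spp1* over *Col1a1* was 0.0493 and 0.0385 *in vivo* and 0.272 and 0.293 *in vitro* at 1 week, and 0.0188 and 0.0169 *in vivo* and 0.573 and 0.834 *in vitro* at 2 weeks. *Spp1* over *Csf1r* was 2.84 and 2.81 *in vivo* at 1 week and 1.04 and 0.972 *in vivo* at 2 weeks. For each marker named here the lowest ratios were in the *in vivo* libraries of 2 weeks. *Spp1* was thus lower there relative to macrophage and fibroblast markers alike.

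**Figure D5:**
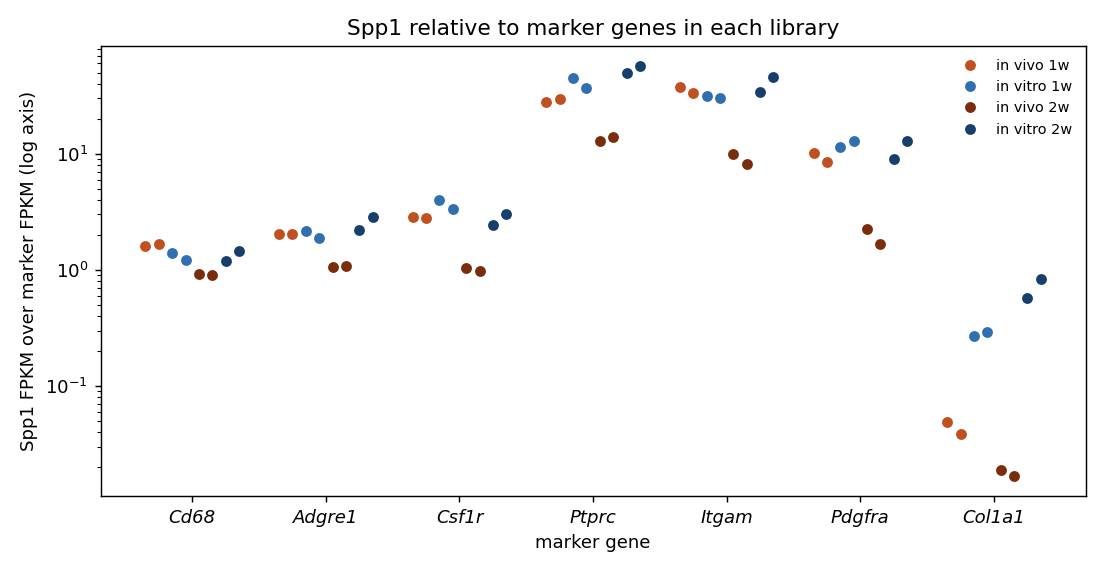
*Spp1* FPKM divided by the FPKM of a marker gene in the same library (y axis, log scale) for 5 macrophage or leukocyte markers and 2 fibroblast markers (x axis), with 1 point per library coloured by group. Over the 8 libraries the ratio spans from 1.84-fold (*Cd68*) to 5.61-fold (*Itgam*) for the macrophage or leukocyte markers. It spans 7.68-fold for *Pdgfra* and 49.4-fold for *Col1a1*, where *Spp1* itself spans 6.49-fold.

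The gene lists behind these comparisons were tested without the members. At 1 week, 4 of the 30 core macrophage genes were called higher and 1 lower *in vivo*, with a median log2 fold change of -0.10. At 2 weeks 3 were called higher and 13 lower, with a median of -0.92. *Lyz2*, the macrophage lysozyme gene and the most abundant of the list, fell at both weeks (log2 fold change -1.45, adjusted p = 0.00048 in limma, and -1.61, adjusted p = 0.00023). *Cd68* changed by -0.66 (adjusted p = 0.014 in limma) at 1 week and was lower by -1.74 (adjusted p = 0.00015) at 2 weeks. *Adgre1* stood at -0.35 (adjusted p = 0.13 in limma) and -1.04 (adjusted p = 0.0019). The complement gene *C1qb* stood at -0.30 (adjusted p = 0.13 in limma) and -1.06 (adjusted p = 0.00083), and its partner *C1qa* at -0.01 (adjusted p = 0.96) and -0.67 (adjusted p = 0.0078), under the fold threshold. *Csf1r*, *Ptprc* and *Itgam* were not called at either week. The list's summed level was 3668 to 4338 FPKM *in vivo* and 6200 to 7123 FPKM *in vitro* at 1 week, and 2533 to 3088 FPKM and 5901 to 7179 FPKM at 2 weeks.

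Some genes of the core macrophage list went up *in vivo*. *Ccr2*, the chemokine receptor gene of recruited monocytes, was at 6.23 and 3.33 FPKM *in vivo* and 0.0192 and 0.0792 FPKM *in vitro* at 1 week, and at 2.24 and 2.73 FPKM *in vivo* and 0 in both *in vitro* libraries at 2 weeks. It was called higher at both weeks, as was *Cx3cr1*, the fractalkine receptor gene (log2 fold change 1.40, adjusted p = 0.0038 in limma, and 1.37, adjusted p = 0.0033). *Fcgr1*, a high-affinity antibody receptor gene, and the cathepsin gene *Ctss* were called higher at 1 week. *Cd163*, a haptoglobin-haemoglobin receptor gene, was called higher at 2 weeks. These 5 genes were named after their values were seen. *Ccr2* and *Fcgr1* kept their calls in every alternative run. *Cx3cr1* lost its call in 6 alternatives at 1 week and 4 at 2 weeks, *Cd163* in 5 and *Ctss* in 3. The genes called higher became 2 at 1 week without the first *in vitro* library, and 1 at 2 weeks without the first library of either group or with no variance trend. Without the second *in vitro* library of 2 weeks the list's genes called lower at 2 weeks numbered 7, and without the second *in vivo* library of 2 weeks 8.

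At 1 week, 21 of the 30 fibroblast genes were called higher and 0 lower *in vivo* (median log2 fold change 1.43, with 4 lower at an unadjusted p under 0.05 and 0 lower by voom). At 2 weeks the calls were 22 and 0 (median 1.89, with 3 lower at an unadjusted p under 0.05 and 0 by voom). *Sparc*, a collagen-binding matrix protein gene, rose by 1.18 (adjusted p = 0.00011 in limma) and 1.40 (adjusted p = 4.3e-05). *Col1a1* rose by 2.36 (adjusted p = 1.2e-05) and 3.004 (adjusted p = 3.6e-06) and *Col3a1* by 1.43 (adjusted p = 0.00011) and 2.10 (adjusted p = 1.6e-05). *Pdgfra* was not called, at 0.06 (adjusted p = 0.46) and 0.20 (adjusted p = 0.028). *Spp1* thus stood below 0 at both weeks, by little and without a call at 1 week (-0.33 ± 0.18), where the collagen genes stood above it. The fibroblast list summed to 27390 to 28990 FPKM *in vivo* and 9111 to 9715 FPKM *in vitro* at 1 week, and to 26120 to 27800 FPKM and 8278 to 8426 FPKM at 2 weeks. How much of this is collagen made per fibroblast was not measured.

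At 1 week, 2 of the 40 further lipid-associated macrophage genes were called higher and 6 lower (median -0.26). At 2 weeks 1 (*Axl*, an efferocytosis receptor gene) was higher and 14 lower (median -0.53). Without scaling between libraries 12 were lower at 1 week, against a median of all genes of -0.34 on that scale, 10 were lower under quantile normalization and 3 without the second library of either group. The 3 most abundant of the list were *Psap*, the lysosomal prosaposin gene, *Ctsb*, the cathepsin B gene, and *Anxa5*, a phosphatidylserine-binding annexin gene. *Psap* changed by -0.22 (adjusted p = 0.14 in limma) and -0.59 (adjusted p = 0.0031), *Ctsb* by -0.39 (adjusted p = 0.037) and -1.19 (adjusted p = 0.00026), and *Anxa5* by 0.52 (adjusted p = 0.0025) and 0.58 (adjusted p = 0.0012), so that only *Ctsb* at 2 weeks among these 3 passed both thresholds. *Pparg*, the fatty acid-sensing nuclear receptor that *Fabp4* is a classic target of, was lower at 2 weeks (log2 fold change -2.43, adjusted p = 1e-05), opposite to *Fabp4*. *Fabp3*, the heart-type fatty acid binding protein, was lower at both weeks (-1.74, adjusted p = 0.00039, and -3.60, adjusted p = 1.2e-05). *Fabp3* is also a gene of cardiomyocytes, and the 10 cardiomyocyte markers summed to 15.96 to 18.9 FPKM *in vivo* and 166 to 188 FPKM *in vitro* at 1 week and to 24.3 to 46.4 FPKM and 1034 to 1228 FPKM at 2 weeks, and their part in its level was not tested.

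For osteopontin's receptors and processing enzymes, 14 of 16 listed genes were tested. At 1 week 3 were called higher and 2 lower *in vivo* (median 0.05). At 2 weeks the calls were 2 higher and 1 lower (median 0.23). *Mmp2*, a gelatinase, was higher at both weeks (log2 fold change 1.65, adjusted p = 1e-05 in limma, and 1.65, adjusted p = 8.2e-06). *Itga5*, a fibronectin receptor subunit, and *Itgb3* were higher at 1 week (1.61, adjusted p = 2.4e-06, and 1.03, adjusted p = 0.0025), and *Itgb5* at 2 weeks (1.51, adjusted p = 3.1e-05). *Itga8* was lower at both weeks (-2.38, adjusted p = 1.2e-05, and -1.65, adjusted p = 4.6e-05), and *Mmp3*, stromelysin-1, at 1 week (-1.61, adjusted p = 0.00047). *Cd44* was not called, at 0.84 (adjusted p = 0.002) and 0.24 (adjusted p = 0.15). The remaining tested genes, *Itgav*, *Itgb1*, *Itga4*, *Itga9*, *Mmp9*, the casein kinase *Fam20c* that phosphorylates osteopontin, and the transglutaminase *Tgm2*, were not called at either week. Of the SIBLING family, the bone matrix proteins to which osteopontin belongs, *Ibsp*, *Dmp1*, *Dspp* and *Mepe* were not tested, and the highest of them in any library was *Dmp1* at 0.139 FPKM.

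For TREM2 signalling, 11 of 12 listed genes other than *Trem2* were tested, of which 0 were called at 1 week by limma (3 higher and 2 lower at an unadjusted p under 0.05, and 1 higher and 0 lower by voom). At 2 weeks 1 was called higher and 2 lower, with a median of -0.36. The adaptor *Tyrobp* was at 174 and 133 FPKM *in vivo* and 205 and 220 FPKM *in vitro* at 1 week, and at 92.0 and 82.5 FPKM *in vivo* and 225 and 278 FPKM *in vitro* at 2 weeks. It was not called at 1 week (log2 fold change -0.48, adjusted p = 0.038) and was lower at 2 weeks (-1.52, adjusted p = 0.00022). The second adaptor, *Hcst*, was lower at 2 weeks (-2.10, adjusted p = 0.0025), and *Trem1*, the receptor gene that amplifies inflammation, was higher (3.45, adjusted p = 0.00056). The kinase *Syk*, the phospholipase *Plcg2*, the phosphatase *Inpp5d*, the sheddases *Adam10* and *Adam17*, *Ms4a4a*, *Ms4a6d* and *Treml2* were not called at either week.

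For the partners of *Lpl* and *Apoe*, 11 of 18 listed genes were tested. At 2 weeks 1 was called higher and 2 lower *in vivo*. *Gpihbp1*, which holds lipoprotein lipase on capillary endothelium, was higher at 1 week (log2 fold change 2.08, adjusted p = 0.0013 in limma). *Lrp1*, a scavenging receptor for apolipoprotein E, was higher at 2 weeks (1.67, adjusted p = 0.0001). The receptor *Vldlr* and the sorting receptor *Sort1* were lower at both weeks (for *Sort1* -1.98, adjusted p = 4.9e-05, and -1.97, adjusted p = 3.8e-05). *Angptl4*, an inhibitor of lipoprotein lipase, *Lmf1*, *Angptl8*, *Apoc1*, *Lipg* and *Sdc1* were not called at either week.

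Relatives of the members did not move as one group with them. Of 7 tested galectin genes other than *Lgals3*, 2 were called higher at 1 week (*Lgals9* and *Lgals3bp*, which encodes a galectin-3 binding protein) and 1 lower at 2 weeks (*Lgals2*). *Lgals1*, the most abundant, was at 0.07 (adjusted p = 0.61 in limma) and 0.42 (adjusted p = 0.0099). Of 12 tetraspanins and partners other than *Cd9*, 1 was called higher and 2 lower at 1 week. At 2 weeks 1 was higher and 4 were lower, of which *Cd151* was lower at both weeks (-1.53, adjusted p = 1.8e-05, and -1.18, adjusted p = 4.2e-05). *Ptgfrn*, which encodes a partner of CD9, was higher at both weeks (1.11, adjusted p = 7e-05, and 1.61, adjusted p = 1.1e-05). *Cd81* and *Cd63*, the most abundant of the group, were not called. Of 11 tested cathepsins other than *Ctsd*, 2 (*Ctsk* and *Ctss*) were called higher at 1 week. At 2 weeks *Ctsk* was higher (2.12, adjusted p = 9.1e-06) and *Ctsb* lower, and *Ctsz* was not called at either week. Among lipid-binding proteins other than the members, *Fabp3* was lower and *Crabp2*, a retinoic acid carrier gene, higher at both weeks (3.19, adjusted p = 2.5e-05, and 4.43, adjusted p = 4.7e-06), while *Fabp7* was not called. Of 15 genes of lysosome membrane and biogenesis, 0 were called at 1 week by limma (1 higher and 10 lower at an unadjusted p under 0.05, and 0 higher and 0 lower by voom). At 2 weeks 2 were lower (*Atp6v0d1* and *Atp6v1a*, subunits of the proton pump). The median was -0.32 at both weeks, and *Lamp1*, *Lamp2* and *Scarb2*, the most abundant membrane proteins of the list, were not called.

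The difference between the weeks was itself tested for the list genes, and 16 of them were called. Of the macrophage and fibroblast lists these were *Pparg* (-1.71, adjusted p = 0.0037 in limma), *Fabp3* (-1.86, adjusted p = 0.0089) and *Ms4a7* (-1.56, adjusted p = 0.0037), a membrane protein gene of macrophages, which were lower *in vivo* by more at 2 weeks. Called in the other direction were *Lox*, lysyl oxidase (1.02, adjusted p = 0.008), *Cthrc1* (1.41, adjusted p = 0.0062) and *Timp1* (1.40, adjusted p = 0.0053), all of the fibroblast list. The others were 7 endothelial markers and 3 genes of other lists. Each of these 6 calls was lost in at least 9 of the alternative fits, among them the fits with no variance trend and with the replicate number as a block.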

How the data were processed

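The authors deposited 1 table of FPKM for 8 libraries, from total RNA prepared with a SMARTER mRNA-Seq kit; the submitters' processing notes name mm10, CASAVA and HISAT2 2.0.5. The counting tool is not given in the sources used here, and the authors' own DESeq2 comparisons are not part of this table. All 8 value columns were matched to samples by name. Multiplied by gene length, 100.0% of the values in every library lay on whole steps of 1 size (tolerance 0.05), from which fragments were recovered. The library size behind the FPKM was 0.863 to 0.915 times the fragments *in vivo* and 1.09 to 1.15 times *in vitro*, so the values already included scaling between libraries.

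Log2(FPKM + 0.1) was fitted with limma 3.58.1 in R 4.3.3 (4 group means, all 8 libraries, variance trend, Benjamini-Hochberg over 15708 genes), after the method was tested on simulated data. The pseudocount shrinks changes of low genes. Counting error alone is covered by fragment numbers. Libraries of a group differed beyond sampling noise (4.50 to 9.93 chi-square per gene). Replicate numbers did not pair the samples: correlations of same-numbered deviations ran from -0.048 to -0.011. Coordinates are those of the table; 98.33% of genes had the same start and end in GENCODE vM21. Promoters came from RefSeq GRCm38.p6, and member proteins were not analysed here. Python 3.11.15, numpy 2.4.6, pandas 2.3.3 and matplotlib 3.10.9 were used.

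The members, gene lists and tests were chosen with earlier results of these data known. The rule for named genes took all members, the 3 most abundant genes of each list, all tested genes of the receptor, TREM2 signalling and lipoprotein lists, defining markers and the 10 genes nearest to *Spp1*. Genes named only for their calls were chosen after their values were seen. Members were left out of the other lists. Some genes that the rule names are not reported here.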

Additional observations from a re-analysis of the deposited data

Results flagged for a closer look

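*Apoe* was above the *in vitro* libraries in both *in vivo* libraries at 1 week and below them in both at 2 weeks. The log2 difference between the weeks was -1.002 ± 0.182 (SE) and did not pass the thresholds used over all genes. No p-value is given, since *Apoe* was chosen on these values. Its value at 1 week depended on the scaling between libraries, as given above. Among genes of the lists, the *in vivo* minus *in vitro* change differed between the weeks in limma's interaction contrast by -1.71 for *Pparg* (adjusted p = 0.0037), by -1.86 for *Fabp3* (adjusted p = 0.0089) and by -1.56 for *Ms4a7* (adjusted p = 0.0037). It differed by 1.02 for *Lox* (adjusted p = 0.008), by 1.41 for *Cthrc1* (adjusted p = 0.0062) and by 1.40 for *Timp1* (adjusted p = 0.0053). The call of each of these list genes was lost in at least 9 of the alternative fits. With 2 libraries per group, no single library could be examined as standing apart.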

How the results depend on the processing

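*Spp1* stayed lower *in vivo* at both weeks in every alternative run, though the change at 1 week was small and not called in the main fit. Its log2 fold change at 1 week was -0.67 without scaling between libraries, where the median over all tested genes was -0.34. It was -0.84 under quantile normalization, and -0.42 to -0.25 with 1 library left out. At 2 weeks it was -2.60 without scaling (median over all tested genes -0.33), -2.471 under quantile normalization and -2.50 to -2.05 with 1 library left out. The difference between the weeks was -1.63 under quantile normalization and -2.17 to -1.72 with 1 library left out. Core macrophage genes called lower at 2 weeks numbered 7 to 13 with 1 library left out and 19 without scaling. Their median likeness rank to *Spp1* was 5.26% to 12.2% with 1 library left out, and that of fibroblast genes 97.0% with pseudocount 1, 88.2% under quantile normalization and 80.7% for profiles divided by their SD. 

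A replicate block cannot move a fold change in these balanced groups (-2.27 for *Spp1* at 2 weeks). With it, core macrophage genes called lower at 2 weeks numbered 12, and 0 members were called for the difference between the weeks. Over all genes that difference gave 90 higher and 181 lower calls, 11 and 16 with the block, 32 and 39 with no variance trend, 27 and 45 with no filter, and 143 and 330 by voom on the recovered fragments. Some fits without 1 library, which leave 1 library in a group, gave fewer calls than any of these. Without scaling between libraries all calls at 1 week went from 1224 higher and 796 lower to 906 and 1562, and at 2 weeks from 1417 and 1265 to 1029 and 2097. Pseudocount 1 gave 485 lower calls at 1 week. *In vivo* between the weeks, 193 higher and 149 lower calls became 53 and 4 in a fit of those 4 libraries, 302 higher by voom and 82 lower with pseudocount 1. *In vitro* between the weeks, 165 lower calls became 109 with no filter, 110 with the block, 81 with pseudocount 1 and 273 by voom. Of list genes called at 2 weeks, 65 kept the call in every alternative and 29 lost it in some; at 1 week 52 and 24. The causes were not tested. With 2 libraries a group, calls rest on the spread shared over all groups.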

Other observations

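Cardiomyocyte, endothelial and bone-cell markers were read in the same libraries. Of 9 tested cardiomyocyte markers 7 were called lower *in vivo* at 1 week. At 2 weeks 8 of the markers were called lower, of which *Nppa* lost its call in 9 alternative runs. The other 1 of the markers, *Myl2*, was called higher at 2 weeks, a call lost in 11 alternative runs. *Myl7*, the atrial myosin light chain and the most abundant of them, stood at 5.93 and 6.38 FPKM *in vivo* and 54.6 and 65.0 FPKM *in vitro* at 1 week, and at 9.61 and 23.0 FPKM *in vivo* and 594 and 475 FPKM *in vitro* at 2 weeks. Its log2 fold change was therefore negative at both weeks (-3.25, adjusted p = 0.00048 in limma, and -5.15, adjusted p = 4.6e-05), as were those of *Actc1* and *Tnnt2*, which encode cardiac actin and troponin T.

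Of the 19 endothelial markers 16 were called higher *in vivo* at 1 week. At 2 weeks 9 were higher and 1 (*Aqp1*, a water channel gene) lower. *Cdh5*, the endothelial cadherin gene, was at 29.6 and 26.2 FPKM *in vivo* and 4.13 and 4.49 FPKM *in vitro* at 1 week, and at 16.7 and 18.9 FPKM *in vivo* and 15.2 and 11.3 FPKM *in vitro* at 2 weeks. *Eng* and *Tek*, among the most abundant of the list, were not called at either week. Of 8 tested osteoclast and osteoblast markers, *Ctsk*, *Runx2* and *Tnfsf11* were higher at both weeks and *Tnfrsf11b*, the osteoprotegerin gene, at 2 weeks (log2 fold change 2.91, adjusted p = 5.6e-06 in limma), while *Acp5* was not called. No gene of the adipocyte list reached the filter apart from *Plin4*, *Adrb3* and *Dgat2*, and *S100a8* of granulocytes stayed at or under 1.15 FPKM.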
